A study of Mus musculus with 4 samples.

Results

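Vancomycin given by mouth was compared directly with the same dose of vancomycin injected into a vein, through the bacteria of stool collected at day 4. The members were the fecal samples that the deposited sample sheets list under day 4, vancomycin and either route. These are 12 of 198 fecal samples in the series, 6 oral and 6 intravenous. Day 4 samples of mice given phosphate-buffered saline (PBS), the vehicle, by mouth (n = 5) or by vein (n = 6) served as the check on route alone.

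All groups were wild-type C57BL6/J mice aged 8 to 12 weeks, kept under specific pathogen-free conditions on standard chow. Vancomycin mice received 2.5 mg in 100 µl of PBS per dose, PBS mice the same volume of vehicle. Dosing was 2 times a day for 3 days with a last dose on day 4, and the mice were euthanized 4 hours later. Bacteria were measured as the percent of reads of the V4 region of the 16S rRNA gene, a gene that all bacteria carry and whose sequence differs between lineages. How the mice were housed in cages is not given in the sources used here, so p-values measure only the spread between these samples.

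Vancomycin is a glycopeptide that blocks cell wall synthesis by binding the peptide precursors of peptidoglycan. Gram-negative bacteria have an outer membrane that keeps the molecule out to a large degree, and some lactobacilli build precursors that it binds poorly. It is scarcely absorbed from the gut, so an oral dose stays in the lumen, whereas an injected dose is cleared mainly by the kidney.

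Recovered depth was 1151 to 20443 reads in oral vancomycin samples and 7877 to 153407 in intravenous ones. PBS samples held 8556 to 64482 reads. A taxon listed at 0 can lie below 3 reads of its library, which is 0.0147% to 0.261% of reads in oral and 0.00196% to 0.0381% in intravenous vancomycin samples. These limits cover counting error only, because PCR reads are not independent molecules. Oral samples all came from the sequencing run named ok122, while the intravenous samples of vancomycin and of PBS were each split into 3 from ok122 and 3 from a run named SB1. The labels name a pair of DNA extraction kits and not which sample had which, and the part of the kit in these comparisons was not tested. Intravenous vancomycin samples 2 and 3 (both ok122) stood apart from the other 4, with a mean Bray-Curtis distance to intravenous PBS samples of 0.692 and 0.483 against 0.892 to 0.985. This distance runs from 0 for the same composition to 1 for no shared taxa. Values are shares of reads and not cell numbers, so growth of one lineage and loss of the others cannot be told apart.

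The stool of the routes was dominated by different phyla. Bacteroidota, Gram-negative fermenters of dietary and host glycans, made up 0% to 2.49% of reads after oral dosing (median 0.459%) and 67.7% to 90.5% after intravenous dosing (median 76.1%). Proteobacteria, the Gram-negative phylum of the enterobacteria, ran from 44.8% to 69.1% (median 58.7%) by mouth and from 0.647% to 31.1% (median 21.8%) by vein. Firmicutes_A, the phylum label that holds the clostridia, ran from 24.3% to 46.2% by mouth and from 0.0721% to 6.83% by vein. Firmicutes_D, which holds the lactobacilli, ran from 2.46% to 9.62% and from 0% to 0.149%. None of these 4 phyla overlapped between the routes.

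The mean difference, oral minus intravenous, was -76.5 percentage points for Bacteroidota, 41.5 for Proteobacteria, 31.5 for Firmicutes_A and 5.68 for Firmicutes_D. Each had an adjusted p of 0.00433 in a two-sided exact permutation test over 8 phyla, and 0.0317 to 0.0476 among run ok122 samples alone. Verrucomicrobiota, Deferribacterota, Desulfobacterota_I and Cyanobacteria did not pass the test, with adjusted p from 0.329 to 0.5. In PBS mice Bacteroidota held 85.4% ± 10.98 (SD, n = 5) by mouth and 89.95% ± 2.36 (SD, n = 6) by vein. Of the intravenous vancomycin samples, 1 lay within the range of intravenous PBS samples (88.1% to 94.5%) and 5 below it. Proteobacteria were at 0.189% ± 0.140 and 0.221% ± 0.185 in the same PBS groups, below every vancomycin sample.

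**Figure D1:**
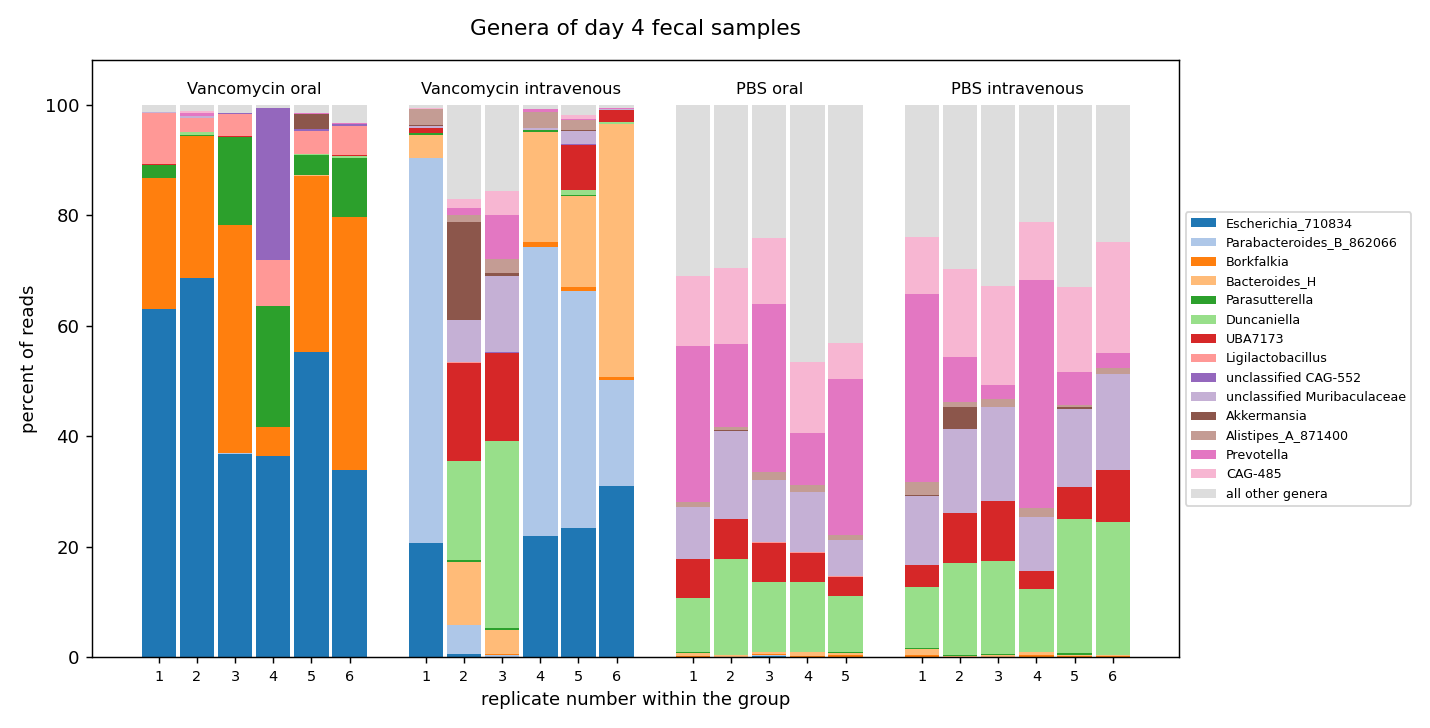
Percent of reads (vertical axis) in each day 4 fecal sample (1 bar per sample, numbered by replicate within its group) of the 14 genera that averaged at least 1% in either vancomycin group, with all other genera in grey. Escherichia and Borkfalkia together hold 41.6% (sample 4, which also carries unclassified CAG-552 and Parasutterella) to 94.3% of the oral vancomycin bars, 4 of the 6 intravenous bars consist mostly of Parabacteroides, Bacteroides and Escherichia, and intravenous bars 2 and 3 carry Duncaniella, UBA7173 and unclassified Muribaculaceae as the PBS bars do.

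Genera were compared on the scale log2(percent + 0.01) with limma in a fit of all day 4 samples. A genus was called where its Benjamini-Hochberg adjusted p lay under 0.05, and log2 differences on this scale understate the change of rare genera. Genus names are given as in the table, where a trailing letter or number marks a part of an older genus. Of 95 genera tested, 13 differed between oral and intravenous vancomycin (13.7%). Of these, 5 were higher by mouth (5.26%) and 8 higher by vein (8.42%). In 7 genera the 6 oral and 6 intravenous samples did not overlap (7.37%). A two-sided exact permutation test per genus called the same 7 (7.37%, adjusted p = 0.0294 each). Groups that do not overlap always get the smallest raw p this design allows, 0.00216, so this match adds no separate evidence.

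Escherichia_710834, the genus of Escherichia coli and a facultative anaerobe with an outer membrane, was the leading genus of 4 of the 6 oral samples. It ran from 33.99% to 68.6% by mouth (median 46.0%) and from 0% to 31.0% by vein (median 21.4%), so every oral sample lay above every intravenous one. Intravenous samples 2 and 3 held 0.579% and 0%, and the other 4 held 20.8% to 31.0%. The difference was 3.74 ± 1.49 (log2, SE) with a limma adjusted p of 0.0878, so that this genus was called by the exact test and not by limma. Limma did call it within run ok122 (6.57, limma adjusted p = 0.00222), with a centred log-ratio (4.33, adjusted p = 0.0340), with a pseudocount of 0.1 (3.15, adjusted p = 0.0151) and without intravenous sample 1, 4 or 6 (adjusted p = 0.0446 to 0.0493). Samples 2 and 3 are among the 3 intravenous samples of run ok122. Without intravenous samples 2 and 3 the difference was 0.97 and limma did not call the genus. Escherichia was listed at 0 in 3 of 5 oral and 5 of 6 intravenous PBS samples.

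Borkfalkia, an anaerobe of the clostridia, held 5.13% to 45.6% of oral samples (median 28.8%) and 0% to 0.904% of intravenous ones (median 0.310%). The groups did not overlap, and the oral mean was 75.6 times the intravenous mean. The log2 difference was 7.21 ± 1.53 (SE, limma adjusted p = 0.000107). PBS samples held at most 0.231% by mouth and at most 0.326% by vein. Intravenous vancomycin samples 4 to 6 (run SB1) lay above these, at 0.557% to 0.904%. Samples 1 to 3 (run ok122) held 0% to 0.0635%, and the part of the run in this split was not tested. All of its reads belonged to a single entry with no species name.

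Ligilactobacillus, a lactic acid bacterium of the lactobacillus group, held 2.40% to 9.39% of oral samples (median 4.72%) and 0% to 0.147% of intravenous ones. It had no overlap, and its log2 difference of 7.49 ± 0.95 was the largest among the genera higher by mouth (SE, limma adjusted p = 1.05e-09). It was also the genus in which route alone had the largest positive PBS value among the 23 genera named by rule, 2.34 ± 1.001, which was not called (limma adjusted p = 0.347). PBS samples held 0.0220% to 0.0884% by mouth and were at 0 in all 6 intravenous samples.

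Parasutterella, an asaccharolytic member of the Proteobacteria, was present in all 12 vancomycin samples. It ran from 0.187% to 21.9% by mouth (median 7.23%) and from 0.121% to 0.449% by vein (median 0.335%). Oral sample 2 alone lay within the intravenous range. The difference was 3.80 ± 1.11 (log2, SE, limma adjusted p = 0.00861). This call was lost in 5 of 28 alternative settings. Among these were the exact test (adjusted p = 0.120) and the fit without oral samples 4 and 6, the shallowest (2.88, limma adjusted p = 0.152).

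Desulfovibrio_R_446353, a sulfate reducer, was a rare genus that did not overlap, with 0.0980% to 0.608% by mouth and 0% to 0.0891% by vein. Its difference was 4.06 ± 0.73 (log2, SE, limma adjusted p = 4.76e-06). An unnamed genus of the family CAG-552, also clostridia, was called at 3.52 ± 1.14 (limma adjusted p = 0.0221). Its oral mean of 4.75% rested on oral sample 4, at 27.5% in a library of 1151 reads, while the other 5 oral samples held 0% to 0.471%. It was no longer called without oral sample 4 (2.16, limma adjusted p = 0.278) or oral sample 6 (3.33, limma adjusted p = 0.0554). In all, the call was lost in 10 of 28 alternative settings, among them the exact test (adjusted p = 0.338).

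Among the genera higher by vein, Parabacteroides and Bacteroides, bile-tolerant Gram-negative anaerobes, held the largest shares. Parabacteroides_B_862066 made up 69.5%, 5.23%, 0.521%, 52.2%, 42.9% and 19.1% of intravenous samples 1 to 6, and at most 0.0622% of any oral sample. Every intravenous sample lay above every oral one although they spanned a wide range. The difference was -8.86 ± 1.32 (log2, SE, limma adjusted p = 6.78e-08). The species entry Parabacteroides distasonis held 98.1% of the genus' share in vancomycin samples. PBS samples held at most 0.0761%, below the lowest intravenous vancomycin sample.

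Bacteroides_H made up 4.11% to 45.8% of intravenous samples (median 13.9%) and was listed at 0 in 5 of 6 oral samples, with 0.0778% in oral sample 5. Its difference of -9.71 ± 1.30 was the largest of all 95 genera (log2, SE, limma adjusted p = 3.48e-09). The species entry Bacteroides intestinalis held 72.0% of the genus' share in vancomycin samples, and its share differed among mice. It held 32.5% of intravenous sample 6, 19.7% of sample 4 and 16.2% of sample 5, but 0.828% of sample 2 and 0% of sample 3. In samples 2 and 3 most of the genus was in an entry with no species name, at 10.6% and 2.42%. PBS mice held 0.553% ± 0.200 of the genus by mouth (SD, n = 5) and 0.411% ± 0.417 by vein (SD, n = 6). Of this, Bacteroides intestinalis averaged 0% by mouth and 0.00736% by vein, and the entry with no species name 0.290% and 0.238%.

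Alistipes_A_871400, a bile-resistant anaerobe of the Rikenellaceae, ran from 0.0562% to 2.99% by vein (median 2.12%). By mouth it was at 0 in 5 samples and at 0.0445% in oral sample 2. The groups did not overlap, and the difference was -6.52 ± 1.08 (log2, SE, limma adjusted p = 9.93e-07). PBS samples held 0.600% to 1.44% by mouth and 0.375% to 2.37% by vein, and of the intravenous vancomycin samples 2 lay within the latter range, 3 above it and 1 below it. The entries behind these shares differed. The species entry sp002362235 held 80.0% of the genus' share in vancomycin samples. It averaged 1.54% by vein, beside 0.0570% and 0.112% in oral and intravenous PBS mice. An entry with no species name averaged 0.596% and 0.955% in those PBS groups and 0.363% in intravenous vancomycin, where sample 3 held 2.08%.

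The Muribaculaceae, the fiber- and mucin-degrading family that leads the Bacteroidota of mouse stool, varied most within the intravenous group. Summed over the family they made up 0% to 1.94% of oral vancomycin samples and 0.404% to 73.5% of intravenous ones, against means of 60.6% and 71.7% in oral and intravenous PBS mice. Of 8 genera tested in the family, 3 were higher by vein and 0 higher by mouth by limma, beside 8.42% and 5.26% of all 95 genera, and the exact test called 0 of the 8. The median log2 difference was -3.36 beside -0.08 over all 95 genera. Of those 95, 34 were at 0 in all 12 vancomycin samples, which fixes their difference at 0. Over the 61 genera with reads in these samples the median was -0.78. UBA7173 held 0.0329% to 17.7% by vein (median 5.12%) and at most 0.202% by mouth, a difference of -6.10 ± 1.29 (SE, limma adjusted p = 0.000107). An entry with no genus name held 0.228% to 13.9% by vein and at most 0.401% by mouth (-5.34 ± 1.24, limma adjusted p = 0.000446).

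Duncaniella, the Muribaculaceae genus of highest mean in the intravenous group (8.84%, median 0.554% beside 5.12% for UBA7173), showed the split between mice. It held 17.9% and 33.9% of intravenous samples 2 and 3 and at most 0.810% of the other 4, and oral samples held at most 0.481%. It was not called (-3.60 ± 1.38, limma adjusted p = 0.0718), nor was CAG-485 (-3.32 ± 1.37, limma adjusted p = 0.104). Both were called with run as a term (limma adjusted p = 0.0398 and 0.0197), within run ok122 (0.0230 each), with a replicate block (0.0234 and 0.0426) and after thinning (0.0203 and 0.0415). Limma also called both without oral sample 2 (adjusted p = 0.0359 and 0.0406), Duncaniella without intravenous sample 1 or 4 (0.0127 and 0.0290) and CAG-485 without intravenous sample 6 (0.0473). Without intravenous samples 2 and 3 the differences were -1.20 and -1.75 (limma adjusted p = 1 for both). CAG-873 was at 0 in all 6 oral samples and present in 3 intravenous ones, up to 3.46%. It was called at -3.40 ± 1.20 (limma adjusted p = 0.0425) but lost the call in 9 of 12 fits that left out 1 vancomycin sample, and without intravenous samples 2 and 3 its difference was -1.16 (limma adjusted p = 1). In PBS mice CAG-485 averaged 11.6% and 15.01% and Duncaniella 12.5% and 17.4% by mouth and by vein, above all 12 vancomycin samples for CAG-485.

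Cryptobacteroides, a Bacteroidota genus of the family UBA932, was at 0 in every oral sample and ran up to 2.69% by vein, where 5 of 6 samples held reads. Set against the mean limit of a 0 in the oral libraries (0.0723%, 3 reads per library), the intravenous mean was at least 10.96-fold higher. This bound was 5.69-fold without intravenous sample 2 and 22.9-fold without oral sample 4, the shallowest library. Its fitted difference was -4.48 ± 1.19 (limma adjusted p = 0.00293) and was not called without intravenous samples 2 and 3 (-3.09, limma adjusted p = 0.139). Mailhella, a relative of Desulfovibrio in the same family, moved in the opposite direction to it. It was at 0 in all oral samples and at 0.170% to 0.333% in 5 of 6 intravenous ones, at least 3.30-fold higher (6.89-fold without oral sample 4), with a fitted difference of -4.04 ± 0.71 (limma adjusted p = 3.71e-06).

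**Figure D2:**
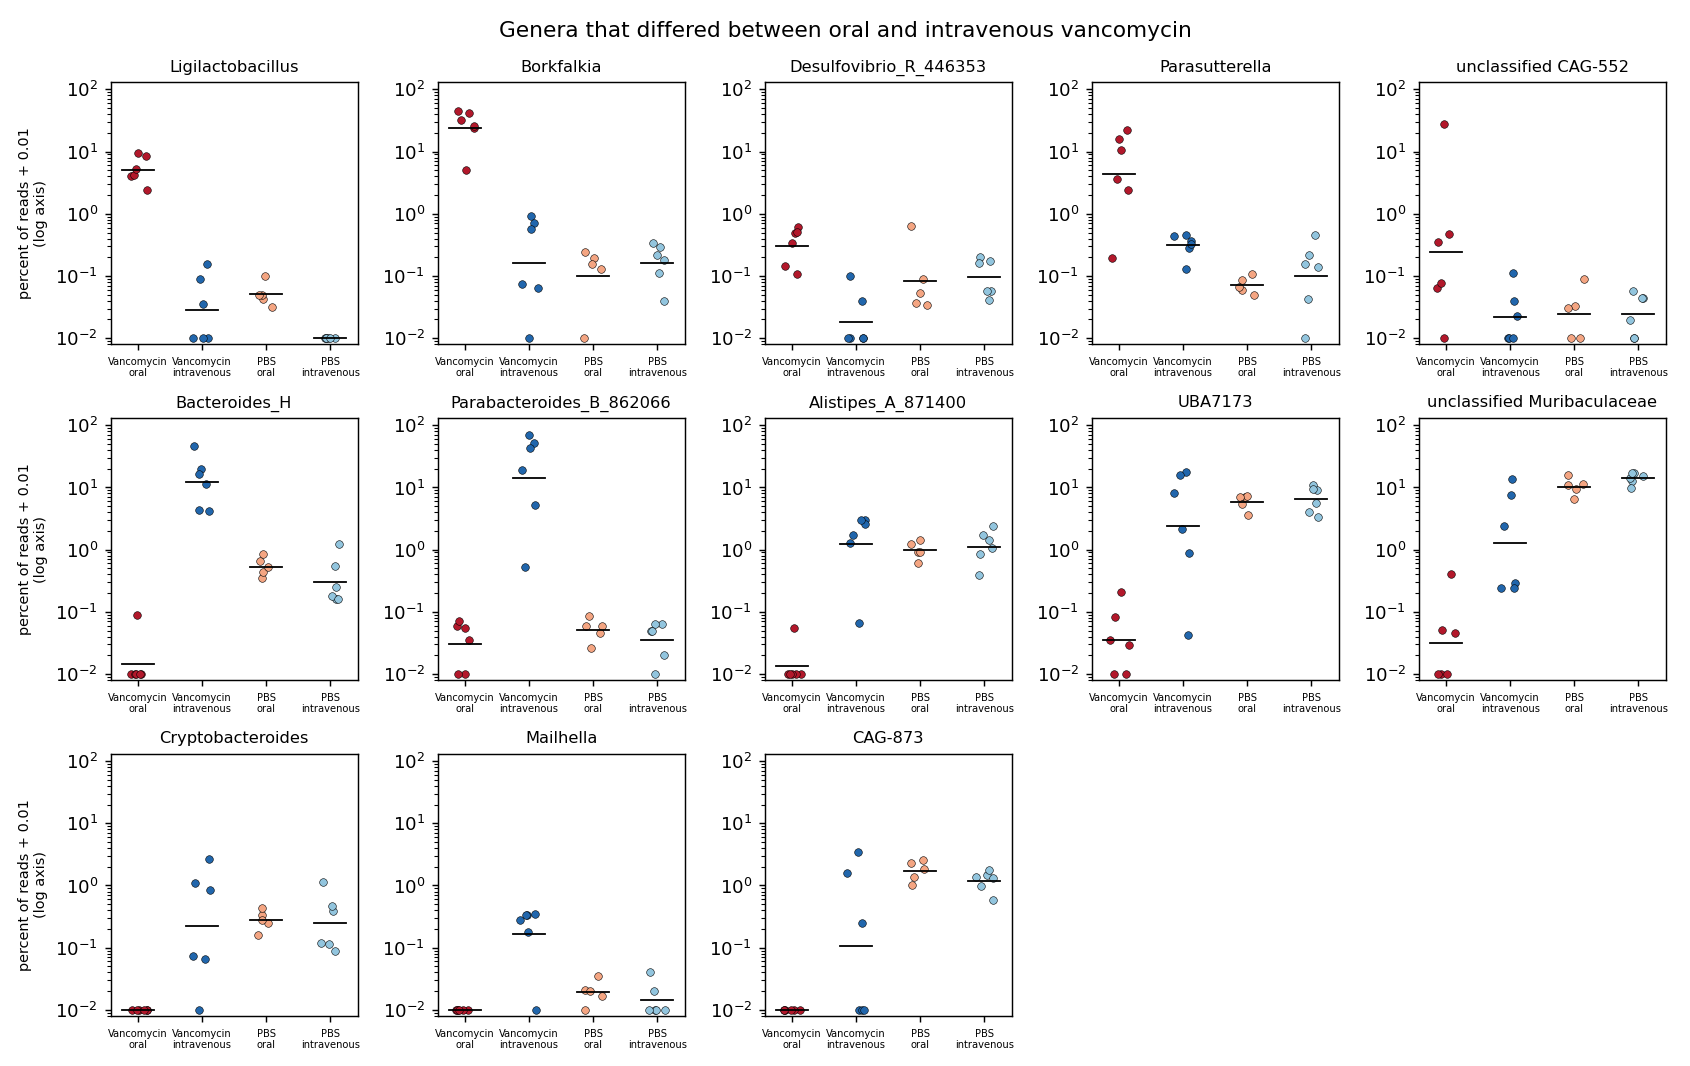
Percent of reads plus 0.01 (log axis) of the 13 genera called between oral and intravenous vancomycin, 1 point per sample and a line at the mean of the log values, in 4 groups. The points of Ligilactobacillus and Borkfalkia in oral vancomycin lie above all others in their panels, and those of Bacteroides and Parabacteroides in intravenous vancomycin lie above the oral ones.

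Prevotella, Muribaculum, Paramuribaculum and UBA3263 averaged less in both vancomycin groups than in the PBS groups. Prevotella, a fiber-degrading Bacteroidota genus, averaged 22.3% and 15.8% in oral and intravenous PBS mice, at most 0.401% in oral vancomycin and 8.04% in intravenous sample 3, the highest vancomycin sample (-2.21 ± 1.20, limma adjusted p = 0.333). Muribaculum, Paramuribaculum and UBA3263 averaged between 2.49% and 8.41% in the PBS groups and at most 0.538% in either vancomycin group, and none was called between the routes. Akkermansia, a mucin degrader, averaged more with vancomycin than with PBS by either route, without a test. In vancomycin mice it was at 17.8% in intravenous sample 2, at 2.67% in oral sample 5 and at most 0.381% in the other 10 samples (-2.58 ± 1.69, limma adjusted p = 0.538). PBS samples held at most 0.0992% by mouth and 4.06% by vein.

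The Lachnospiraceae, butyrate- and acetate-forming clostridia, had 27 genera tested, of which 0 were called by limma, 0 had an unadjusted p under 0.05 and 0 were called by the exact test, beside 13, 18 and 7 of all 95 genera (13.7% by limma, 7.37% by the exact test). They summed to 0% to 0.140% by mouth and 0% to 3.75% by vein, beside 9.08% and 4.74% on average in oral and intravenous PBS mice. The Oscillospiraceae averaged 0.00742% by mouth and 0.444% by vein, with 0 of 6 genera called by limma or the exact test and 1 at an unadjusted p under 0.05. The Ruminococcaceae, with 0 of 5 by each of these counts, were at 0 in all oral samples and averaged 0.0487% by vein. Of the 95 tested genera, 34 were listed at 0 in all 12 vancomycin samples and so had no difference to call, 7 of them Lachnospiraceae. A further 31, of which 15 were Lachnospiraceae, had reads in intravenous but not in oral samples. The reverse held for 3, of which 2 were Lachnospiraceae. The oral libraries had the lower median depth (15258 against 23354 reads). The part of depth in these detection counts was not tested.

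At family level 10 of 39 families were called (25.6%). Those higher by vein were Tannerellaceae, Bacteroidaceae, Rikenellaceae, Muribaculaceae and UBA932. Those higher by mouth were Lactobacillaceae, Borkfalkiaceae, Burkholderiaceae_A_595427 (the family of Parasutterella), CAG-552 and Staphylococcaceae. Of these 10, the exact test did not call Muribaculaceae, UBA932, Burkholderiaceae_A_595427, CAG-552 or Staphylococcaceae (exact adjusted p = 0.0633, 0.0657, 0.0633, 0.194 and 0.197). It called Enterobacteriaceae_A, the family of Escherichia, which limma did not (exact adjusted p = 0.0141, limma adjusted p = 0.0710). Without oral samples 4 and 6, limma called 2 families higher by mouth and 5 by vein. The Staphylococcaceae, a skin family, were at 0 in all intravenous samples and averaged 0.0660% ± 0.0798 by mouth (SD, n = 6), with a log2 difference of 2.01 ± 0.72 (SE, limma adjusted p = 0.0261). Of 11 names on a list of reagent, skin, food and unassigned entries, 2 had reads in oral and 2 in intravenous vancomycin samples. Their summed share was 0% to 0.202% by mouth and 0% to 0.0141% by vein, and the part of that list in the results was not tested beyond a fit without it, which called 12 genera.

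Route alone was assessed in the PBS mice. Of 95 genera, 1 was called between oral and intravenous PBS (1.05%), and of 39 families 0 were called by limma (0%), with 1 family at an unadjusted p under 0.05 and 0 by the exact test. The genus was Velocimicrobium of the Lachnospiraceae. It was at 0 in all 5 oral samples and held up to 0.534% in 4 of 6 intravenous ones (-2.90 ± 0.71, limma adjusted p = 0.00984), and in vancomycin mice it was seen in 1 oral sample. The call was lost within run ok122 (limma adjusted p = 0.176), after thinning (0.0656), with a replicate block (0.313) and without intravenous sample 5 (0.0744), and the exact test called 0 genera with PBS.

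The difference between the routes was itself compared between vancomycin and PBS. The interaction was called in 9 of 95 genera (9.47%). Oral minus intravenous was lower with vancomycin than with PBS for Bacteroides_H (-10.52, limma adjusted p = 2.82e-05), Parabacteroides_B_862066 (-9.40, adjusted p = 0.000209), Alistipes_A_871400 (-6.33, adjusted p = 0.00234), UBA7173 (-5.95, adjusted p = 0.0214) and Mailhella (-4.47, adjusted p = 0.00132). It was higher for Borkfalkia (7.91, limma adjusted p = 0.00777), Ligilactobacillus (5.15, adjusted p = 0.00553), Desulfovibrio_R_446353 (4.25, adjusted p = 0.00234) and Velocimicrobium (3.26, adjusted p = 0.0158). The Velocimicrobium value came mostly from the PBS difference (-2.90), since its difference with vancomycin was 0.365 ± 0.678 (SE) and not called. For the other 5 genera called with vancomycin, among them Parasutterella (4.25, limma adjusted p = 0.0789), a route difference beyond that of PBS was not shown.

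**Figure D3:**
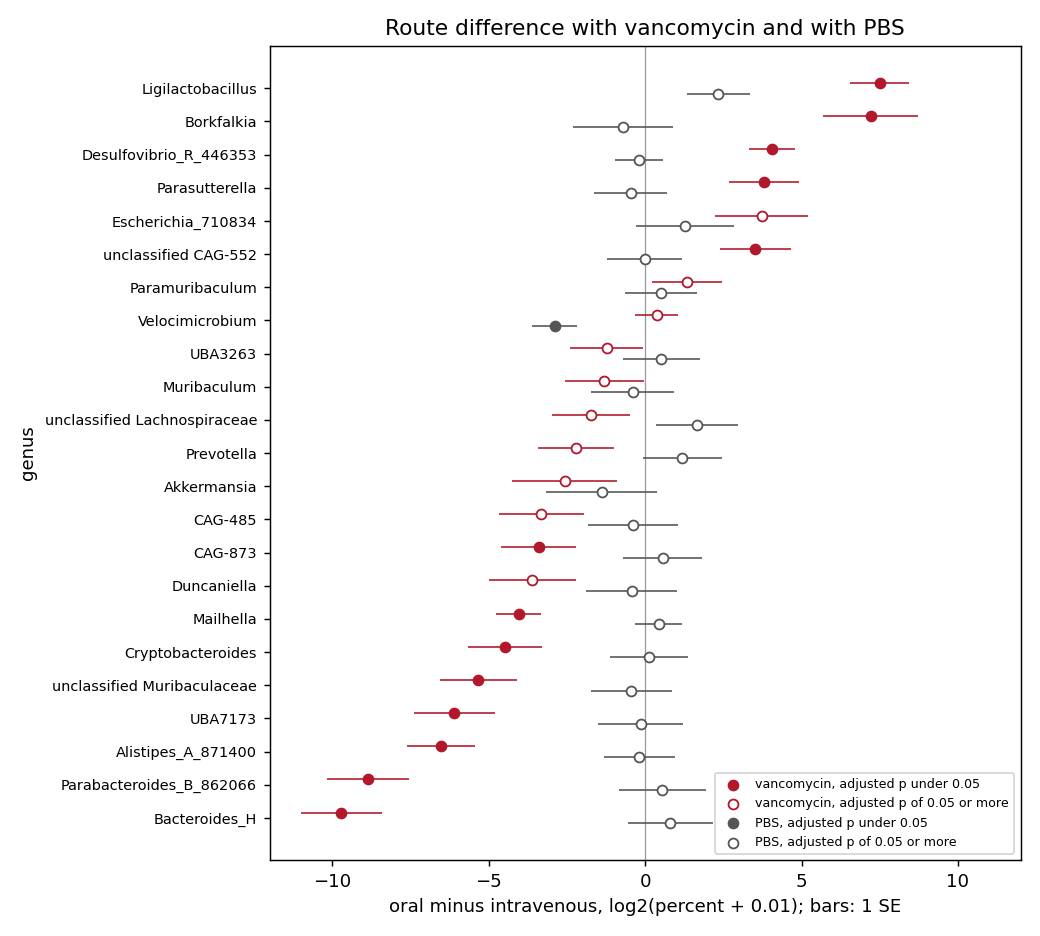
Oral minus intravenous difference on the log2(percent + 0.01) scale (horizontal axis, bars 1 SE) for the 23 named genera, in vancomycin mice (red) and PBS mice (grey), filled where the adjusted p lay under 0.05. Vancomycin values run from -9.71 for Bacteroides_H to 7.49 for Ligilactobacillus, and among PBS values only Velocimicrobium is filled.

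Whole-community composition differed between the routes of vancomycin. Bray-Curtis distances averaged 0.824 between oral and intravenous samples, 0.317 among oral and 0.639 among intravenous samples. R2, the share of the summed squared distance that lay between the routes, was 0.461 (exact permutation test, p = 0.00216, the smallest this design can give, adjusted p = 0.0195 over 9 tests), and the adjusted p was 0.0455 within run ok122 (R2 = 0.545). Between oral and intravenous PBS mice the R2 was 0.175 (exact permutation test, adjusted p = 0.192). At day 0, in the vancomycin mice whose libraries held at least 1000 reads (4 oral, 5 intravenous), R2 was 0.0533 (exact permutation test, p = 0.849). By limma 0 of 91 genera were called at day 0 (0%), with 2 at an unadjusted p under 0.05. Escherichia was listed at 0 in all 9 of these day 0 libraries.

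No difference in evenness or richness beyond the spread between samples was detected between the routes of vancomycin. The Shannon index, which rises with the number and evenness of taxa, ran from 0.909 to 1.56 by mouth (median 1.27) and from 1.003 to 2.83 by vein (median 1.64), against 2.73 to 3.46 and 2.58 to 3.15 in the PBS groups. Intravenous samples 2 and 3, at 2.70 and 2.83, lay within the range of intravenous PBS mice. The mean difference of -0.610 had an adjusted p of 0.152 (two-sided exact permutation test), and the difference in PBS mice was 0.111 (exact adjusted p = 0.487). The interaction was -0.720 (exact permutation p = 0.0549), with p from 0.0132 to 0.114 when 1 sample was left out. In 1000 reads per library, 13.2 ± 5.07 taxa were seen by mouth and 26.6 ± 15.8 by vein (SD, n = 6 each, exact adjusted p = 0.117). The number of genera that make up 90% of reads was 2 to 4 by mouth and 2 to 12 by vein.

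Oral samples lay farther from vehicle mice, and closer to each other, than intravenous ones. The mean distance to PBS mice of the same route was 0.989 ± 0.00911 by mouth and 0.833 ± 0.204 by vein (SD, n = 6 each), a difference of 0.156 (exact permutation, adjusted p = 0.0455). The distance to the group's own centroid was 0.209 ± 0.0885 by mouth and 0.433 ± 0.144 by vein, a difference of -0.224 (exact permutation, adjusted p = 0.0292). Both rested on intravenous samples 2 and 3, since without them the difference to PBS was 0.0326 (exact permutation, adjusted p = 0.1) and that in spread was 0.0136 (exact permutation, adjusted p = 0.843). The first call was also lost without any 1 of the oral samples (exact permutation, adjusted p = 0.141 to 0.152). The second was lost in 4 of 12 fits that left out 1 sample (exact permutation, adjusted p up to 0.195). Among these were the fits without oral sample 1 (adjusted p = 0.0584) and without oral sample 3 (adjusted p = 0.0519). Composition still differed without intravenous samples 2 and 3 (R2 = 0.691, exact permutation test, adjusted p = 0.0292), and 11 genera were called, all among the 13. From day 0 to day 4 of the same mouse the distance was 0.985 ± 0.0113 by mouth and 0.855 ± 0.195 by vein (SD, n = 6 each, exact permutation p = 0.0693). Mice were matched between days by sample name, and 3 of the day 0 libraries held 407, 695 and 933 reads. Among mice with at least 1000 reads at day 0 (4 oral, 5 intravenous) the difference was 0.156 (exact permutation p = 0.214), beside 0.131 over all 12.

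**Figure D4:**
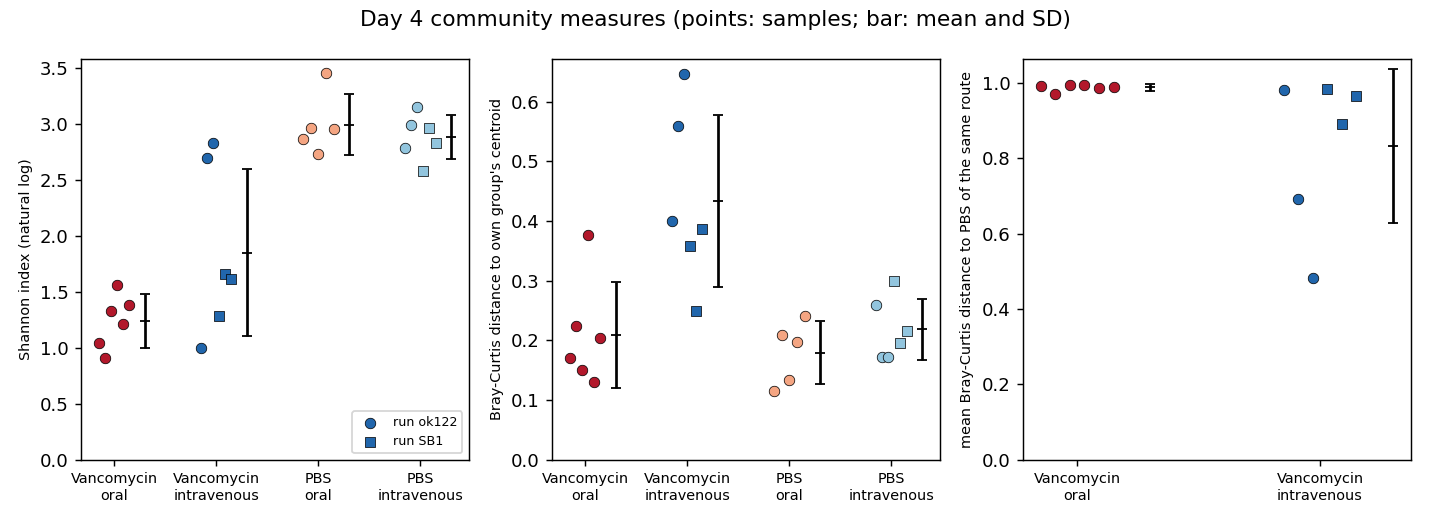
Shannon index, Bray-Curtis distance to the centroid of the sample's own group, and mean Bray-Curtis distance to PBS mice of the same route (vertical axes), with 1 point per day 4 sample, circles for run ok122, squares for run SB1, and a bar for mean and SD. Intravenous vancomycin samples 2 and 3, both circles, have the highest Shannon index of the vancomycin samples (2.70 and 2.83) and the lowest distance to PBS (0.692 and 0.483).

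Distances within the intravenous group were also set out by run, without a test. The 3 intravenous vancomycin samples of run SB1 had a mean pairwise distance of 0.313, and those of run ok122, which include samples 2 and 3, of 0.783. The mean distance between the runs was 0.699, below that within run ok122. Among run ok122 samples alone (6 oral, 3 intravenous), 15 genera were called, 4 higher by mouth and 11 higher by vein, 11 of them among the 13. With run as a term in the fit 14 were called, 12 of them among the 13.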

How the data were processed

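The deposited table gives a signal for each of 488 taxa, which the authors scaled to 100000 in every fecal sample, as its values show. The V4 amplicon had 30 to 35 PCR cycles, per the labels' protocols, and for the taxonomy, the read filter and the grouping tool no name was found (not given in the sources used here). Empty cells (11.6%) were read as 0. Route, antibiotic and day came from the deposited sample sheets. Whole reads were recovered from the steps between values (within 0.02 reads or 1e-05 of the value) and used only for depth, limits, thinning and the comparison of replicates, with no count model.

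Percent of reads was summed to 316 genera and 107 families. Those with reads in 20% or more of the day 4 samples were tested with limma 3.58.1 (R 4.3.3) on log2(percent + 0.01), in 1 fit of 89 day 4 samples with a mean per group and a variance trend. In other groups, 2 near-identical pairs were averaged. Single values were tested by exact permutation in Python 3.11.15 with numpy 2.4.6, adjusted by Benjamini-Hochberg over 9 tests. These tests were two-sided, except that composition was tested one-sided for a large R2 of Bray-Curtis distances. Richness is the mean of 20 draws of 1000 reads. The limma step and the permutation tests were tested on simulated data.

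Named genera were those that averaged at least 1% in either vancomycin group, up to 10 called in each direction, the 10 most abundant in PBS mice and those called in PBS. Members, lists and rules were chosen with earlier results of these data known. Replicate numbers were not taken as pairs. Alternatives were the pseudocount, the presence filter, samples in the fit, run, thinning, a centred log-ratio, day 0 of the same mouse, taxonomic rank, distance and each replicate left out.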

Additional observations from a re-analysis of the deposited data

Results flagged for a closer look

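Of 42 groups of values examined for a sample far from the others, 12 had one. The rule's chance rate of about 1 in 20 holds for normally distributed values. These shares include many 0s and several flags fall on the same sample, so the count cannot be set against that rate. In the oral group, sample 2 was the closest to PBS (distance 0.971) and the highest in Alistipes_A_871400 (0.0445%), CAG-485 (0.330%) and unclassified Muribaculaceae (0.401%). Oral sample 4, the shallowest library, was far above the rest in unclassified CAG-552 (27.5%). Oral sample 5 was highest in Akkermansia (2.67%) and Bacteroides_H (0.0778%), and oral sample 6 in UBA7173 (0.202%). In the intravenous group, sample 2 was highest in Akkermansia (17.8%), and sample 3 in CAG-485 (4.42%), Prevotella (8.04%) and unclassified CAG-552 (0.102%).

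The route difference was not the same with vancomycin as with PBS, by limma's interaction contrast, for Bacteroides_H (-10.52), Parabacteroides_B_862066 (-9.40), Alistipes_A_871400 (-6.33), UBA7173 (-5.95), Borkfalkia (7.91) and Ligilactobacillus (5.15), all with at least 1% on average in a vancomycin group.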

How the results depend on the processing

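The 13 genera called with vancomycin kept their direction in all 363 refits, and 323 kept the call. The call count was 10 to 15 over limma settings (11 to 15 with 1 replicate left out) and 7 by the exact test per genus, 6 of them among the 13. Families gave 6 by the exact test, chosen after seeing the data (9 to 13 with 1 left out). A replicate block gave 14 genera of 61 with vancomycin and 0 with PBS. Correlations of same-numbered samples ran from -0.168 to 0.132 (vancomycin) and -0.0822 to 0.280 (PBS), with 3 of 6 and 2 of 5 over 0.1. A centred log-ratio moved the median of all genera from -0.08 to 0.52 and called 7 higher by mouth and 8 by vein. For PBS the count was 3 with pseudocount 0.001, 2 without the presence filter and when thinned, 0 with pseudocount 0.1, presence in 50%, only the compared groups, change from day 0 and the exact test, and 1 to 3 with 1 left out (families 0 to 1). Velocimicrobium was not among the genera called within run ok122, when thinned or without intravenous PBS replicate 5.

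The Shannon difference ran from -0.779 to -0.414 with vancomycin, from -0.00513 to 0.177 with PBS (below 0 without oral sample 4), and its interaction from -0.890 to -0.524 with 1 left out and -1.14 as change from day 0 (exact p = 0.0226). Without intravenous replicate 1 the vancomycin Shannon difference had an exact adjusted p of 0.0341. Spread was -0.197 at genus level, -0.173 at family level and -0.248 within run ok122, past no threshold, -0.277 to -0.135 with 1 left out, and 0.0136 without intravenous samples 2 and 3. Distance to PBS was 0.281 within run ok122, 0.0855 to 0.186 with 1 left out, 0.0326 without intravenous samples 2 and 3 and 0.154 without oral samples 4 and 6, with exact adjusted p of 0.0714, 0.0195 to 0.152, 0.1 and 0.243. Change within mouse was 0.145 at genus level (exact p = 0.0152) and 0.238 within run ok122 (exact p = 0.0357). Leaving out these samples in pairs was chosen after seeing the data. Depth limits rare genera most in oral sample 4, where a 0 allows up to 0.261%.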

Other observations

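Several genera resolved into entries that differed between mice of a group. Parasutterella in oral samples 3 and 4 was mostly 1 named species entry (12.3% and 17.3% of reads), which held at most 2.93% in the other oral samples, while the entry with no species name ran from 0.1603% to 7.87% over the oral group. In intravenous samples 2 and 3, Duncaniella muris (11.2% and 16.0%) and Duncaniella dubosii (5.16% and 15.5%) were both present, whereas PBS mice held on average 2.33% and 2.38% of Duncaniella muris and 7.14% and 8.46% of Duncaniella dubosii by mouth and by vein.

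Mucispirillum, a mucus-dwelling genus and here the whole of the Deferribacterota, averaged 0.688% ± 0.967 by mouth and 0.0980% ± 0.134 by vein (SD, n = 6 each) and was not called (1.58 ± 1.02, limma adjusted p = 0.532).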
